A study of Mus musculus with 36 samples.

Results

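Spleens of mice given oil palm phenolics (OPP, a water-soluble polyphenol extract of the oil palm fruit) were set against spleens of mice given water at the earliest time sampled, 18 hours. The comparison took 6 of the 36 arrays of the series, chosen by their labels, and covered all 23982 probes of the deposited value table. The 3 arrays of the OPP group came from mice that drank OPP at 1500 ppm gallic acid equivalents, and the 3 arrays of the water group from mice that drank distilled water. All were male BALB/c mice aged 6 weeks, and all had received J558 cells, a myeloma line of mouse origin, by subcutaneous injection, so the water group carries the tumour cells too. Whether each array holds RNA of 1 animal or of several pooled animals is not given in the labels used here. The treatment text of every sample names 4 weeks after inoculation beside its own time, so what the 18 hours are counted from is not settled. The 12 other spleen arrays, OPP and water at 1 and 4 weeks from mice aged 7 and 10 weeks, entered the fit and the comparison between times.

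The spleen filters blood and holds B cells, T cells, red pulp macrophages that take up old red cells, and, in mice, red cell and granulocyte precursors. Acute phase proteins such as serum amyloid A, haptoglobin, haemopexin and fibrinogen are plasma proteins whose genes are switched on during inflammation, mainly in hepatocytes, through the factors STAT3, C/EBP and NF-kB. Polyphenols are studied for their effects on oxidative stress, which the factor NRF2 answers by inducing antioxidant enzymes.

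Values are log2 of the deposited ratio of a probe to its median over the 18 spleen arrays, so 0 is that median and 1 a doubling of it. They give no absolute level. The tissue therefore could not be checked against the levels of its markers, and dim probes cannot be separated from bright ones. In bulk RNA, fewer cells of a type and less RNA per cell cannot be told apart. Differences are OPP minus water, with the standard error (SE) of a limma fit to all 18 spleen arrays and 3 arrays per group. For gene lists each gene stands with 1 probe.

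No probe separated OPP from water in limma after Benjamini-Hochberg adjustment over all probes: 0 of 23982 were called at an adjusted p under 0.05 (0%), and the lowest adjusted p was 0.426. At an unadjusted p under 0.05 there were 1655 probes lower in OPP (6.90% of all probes) and 960 higher (4.00%). The 3 OPP arrays lay wholly below the 3 water arrays at 2562 probes (10.7%) and wholly above them at 1285 (5.36%). Counted with 1 probe for each of 14739 genes, the shares at an unadjusted p under 0.05 were 7.81% lower and 3.53% higher, and the shares without overlap 11.9% lower and 4.78% higher. The median difference over all genes was -0.05 and 61.7% of genes had a negative difference, so most members of a list may have one without the list standing apart. The direction of this imbalance depends on scaling: higher probes made up 36.7% of those at an unadjusted p under 0.05 as deposited, 46.3% after each array was centred on its median and 53.9% after quantile normalisation. Under quantile normalisation the median over all genes was -0.02, 54.7% had a negative difference and 5.05% were lower at an unadjusted p under 0.05. The list medians below, and counts of 5 or more over a whole list, are also given under that scaling where they differ by more than 1.5 times. The counts that follow are descriptions.

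The water arrays were not alike. Water replicates 2 and 3 carried high values of hepatocyte genes, water replicate 3 carried high values of cornified epidermis genes, and water replicate 1 carried high values of Dct and Tyrp1, enzymes of melanin synthesis. These are 2 of 9 melanocyte genes, a list chosen after the values were seen, and the other members were not raised like them: Tyr, the enzyme of the first step, had 0.25 and Pmel 0.33 in that array. Of the 9 genes, 0 reached an unadjusted p under 0.05. The hepatocyte list (23 genes) had array medians of -0.23, -0.06 and -0.07 in OPP, against -0.11, 1.03 and 0.67 in water. Over the 12 spleen arrays of 1 and 4 weeks its highest array median was 0.58, in the OPP group at 1 week. Whether hepatocyte, skin or pigment cell RNA reached these arrays was not tested. Values without these arrays are given for the lists and genes that were highest in them.

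**Figure D1:**
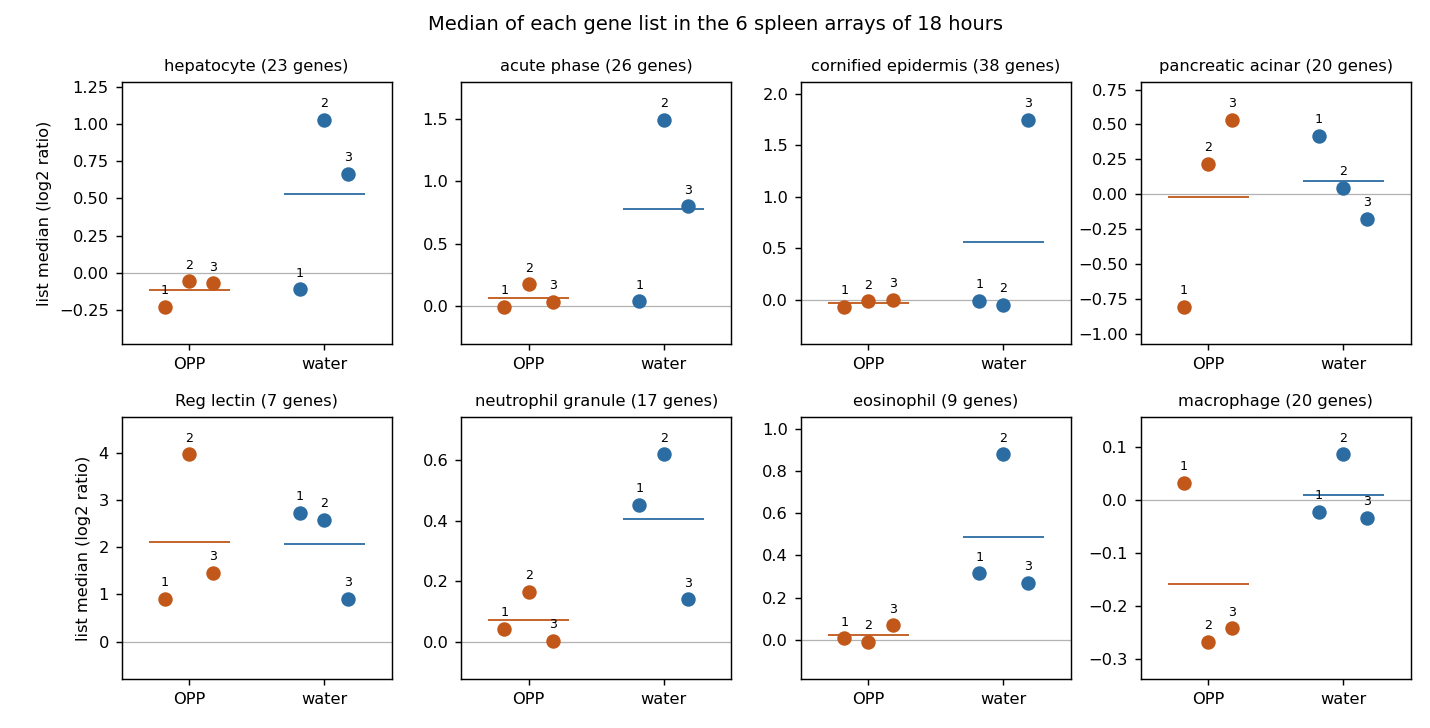
Median log2 ratio of 8 gene lists in each of the 6 spleen arrays of 18 hours (vertical axis of each panel, own scale; points are arrays labelled by replicate, OPP left and water right; the line is the mean of the 3 array medians). Water replicates 2 and 3 stand high for the hepatocyte list, at 1.03 and 0.67, and water replicate 3 alone for the cornified epidermis list, at 1.75.

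The acute phase genes mostly had lower values in OPP than in water. Of 26 measured, 22 had a negative difference, against 61.7% of all genes. At an unadjusted p under 0.05, 15 were lower, against 7.81% of all genes, 1 was higher and 0 were called. Their median difference was -0.67, against -0.05 over all genes. Under quantile normalisation the median was -0.37 and 10 were lower at that threshold. Only 3 members, Hpx, Hp and Hamp, had groups that did not overlap, a share of 11.5% that is near the 11.9% over all genes. The array medians of the list were -0.01, 0.17 and 0.03 in OPP and 0.04, 1.49 and 0.80 in water, so water replicate 1 stood with the OPP arrays and water replicates 2 and 3 stood apart.

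The upstream sequences of 5 acute phase genes are shown because these genes had their highest values in the same water arrays. Each is the 250 bases before the annotated start, 5′ to 3′ on the strand of the gene, from RefSeq on GRCm38.p6. They lie at chr7:105600117-105600366 (minus strand) for Hpx, chr7:46742981-46743230 (minus) for Saa1, chr7:46751583-46751832 (plus) for Saa2, chr3:83025903-83026152 (plus) for Fga and chr7:30944030-30944279 (minus) for Hamp. Capitals mark a match to the STAT-type motif TTCNNNGAA, which is its own reverse complement, or to the C/EBP-type motif TTNNGNAAT on either strand (ATTNCNNAA on the other); no matches of the 2 motifs overlap in these windows.
Hpx: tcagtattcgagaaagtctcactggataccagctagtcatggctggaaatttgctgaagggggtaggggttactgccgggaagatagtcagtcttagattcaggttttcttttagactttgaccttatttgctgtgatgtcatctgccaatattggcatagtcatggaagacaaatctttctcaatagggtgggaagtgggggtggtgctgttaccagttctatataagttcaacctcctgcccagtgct
Saa1: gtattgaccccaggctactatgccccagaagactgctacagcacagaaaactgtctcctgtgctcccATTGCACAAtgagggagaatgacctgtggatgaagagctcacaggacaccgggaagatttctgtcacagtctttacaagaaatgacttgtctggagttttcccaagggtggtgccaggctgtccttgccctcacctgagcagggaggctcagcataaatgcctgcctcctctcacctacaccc
Saa2: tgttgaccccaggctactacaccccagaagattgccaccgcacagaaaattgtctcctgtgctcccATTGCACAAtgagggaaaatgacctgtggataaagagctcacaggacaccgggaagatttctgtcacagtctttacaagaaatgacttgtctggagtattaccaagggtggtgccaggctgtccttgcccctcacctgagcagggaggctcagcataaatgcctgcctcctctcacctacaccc
Fga: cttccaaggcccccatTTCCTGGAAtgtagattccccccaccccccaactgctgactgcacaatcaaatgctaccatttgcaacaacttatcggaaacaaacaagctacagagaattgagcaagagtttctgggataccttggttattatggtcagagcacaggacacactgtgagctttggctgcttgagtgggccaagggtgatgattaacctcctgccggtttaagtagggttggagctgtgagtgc
Hamp: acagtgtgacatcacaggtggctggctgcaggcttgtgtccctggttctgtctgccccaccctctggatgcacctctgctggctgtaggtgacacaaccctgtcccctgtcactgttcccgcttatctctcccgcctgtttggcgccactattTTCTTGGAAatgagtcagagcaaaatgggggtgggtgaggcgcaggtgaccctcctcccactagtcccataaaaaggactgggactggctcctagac
Saa1 and Saa2, which code for serum amyloid A proteins, share 94.8% of aligned bases here and hold the C/EBP-type match at bases -183 to -175 and -184 to -176 before the start. Fga holds the STAT-type match at -234 to -226 and Hamp at -97 to -89. The window of Hpx holds neither set of letters. Among all 32851 promoters of the table the STAT-type motif is found in 7.02% and the C/EBP-type motif in 10.2%. Of the 21 acute phase genes with an entry, 6 hold the first and 6 the second in any of their promoters. These counts are by gene and the shares by promoter, so they are not directly comparable. A match is a description of the letters and not evidence of binding.

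Saa1 had log2 values of -0.48, 0.18 and 0.00 in OPP, against 0.00, 4.61 and 3.52 in water. Water replicate 1 lay inside the OPP range and the other water arrays far above it. The difference was -2.81 (SE 0.64, limma adjusted p 0.426). Saa2 had -0.17, -0.02 and 0.20 in OPP and -0.21, 2.66 and 1.48 in water, a difference of -1.31 (SE 0.39) on the same pattern. Because the 2 genes are near copies, their probes may share signal.

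Hpx codes for haemopexin, which binds free haem in plasma. It had -0.01, -0.08 and -0.02 in OPP, against 0.24, 3.45 and 2.52 in water. These groups did not overlap, and the difference was -2.11 (SE 0.45, limma adjusted p 0.426). Fga, the fibrinogen alpha chain, had -0.27, -0.17 and 0.16 in OPP and 0.03, 3.75 and 2.52 in water, a difference of -2.19 (SE 0.56), and its second probe gave -2.35. Fgg, the gamma chain, gave -1.20 (SE 0.35), whereas Fgb, the beta chain, gave 0.02 (SE 0.10). Whether the chains differ from each other was not tested, and without levels it is not known whether the Fgb probe was above background.

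Hamp codes for hepcidin, the hormone that closes the iron exporter ferroportin. Its values were -0.00, -0.02 and 0.00 in OPP, against 0.04, 1.03 and 0.95 in water, a difference of -0.68 (SE 0.25). Hp, haptoglobin, which binds free haemoglobin, had 0.65, 0.83 and -0.02 in OPP and 1.00, 1.71 and 0.85 in water, a difference of -0.70 (SE 0.28), and its second probe gave -0.65. The groups of both genes did not overlap, by small gaps.

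Not every member of the acute phase list had the order of arrays seen in Saa1. Whether that order follows the source of the RNA was not tested. Saa3, which macrophages and other non-hepatic cells make in mice, had 2.39, 2.57 and -0.17 in OPP, against 3.23, 2.80 and 1.80 in water. Here water replicate 1 was the highest array, OPP replicate 3 the lowest, and the difference was -1.02 (SE 0.47). Lcn2, the iron-scavenging lipocalin of neutrophils, had 0.25, 0.38 and -0.12 in OPP and 0.57, 0.64 and 0.14 in water, a difference of -0.28 (SE 0.30). The metal-binding metallothioneins Mt1 and Mt2 had differences of 0.35 (SE 0.42) and 0.08 (SE 0.32).

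Of the other members, Crp (C-reactive protein) had -0.93, Orm1 and Orm2 (orosomucoids) -0.89 and -1.01, Apcs (serum amyloid P) -0.67, Ahsg (fetuin A) -0.69 and Saa4 -0.52, all at an unadjusted p under 0.05. Ttr, the thyroxine carrier transthyretin, had -1.34 (SE 0.64). A2m (alpha-2-macroglobulin) was the 1 member higher at that threshold, with 0.22 (SE 0.11). Itih3, Itih4, Cp (ceruloplasmin), Serpina3n, Lbp and Agt lay between -0.59 and -0.01 and did not reach it.

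Genes of hepatocyte metabolism and transport had nearly the same values. Of 23 measured, 20 had a negative difference, against 61.7% of all genes, and Ahsg and Ttr are also on the acute phase list. At an unadjusted p under 0.05, 16 were lower (69.6%, against 7.81%), or 10 under quantile normalisation. In 2, Apoc3 and Serpina1a, the groups did not overlap, a share of 8.70% that is below the 11.9% over all genes. Their median difference was -0.66, against -0.05 over all genes. Apoa2, an apolipoprotein of high density lipoprotein, had -0.52, -0.06 and -0.08 in OPP, against -0.11, 3.41 and 3.08 in water, a difference of -2.35 (SE 0.77). Apoh had -1.55 (SE 0.44), Bhmt, a methionine cycle enzyme, -1.46 (SE 0.51), the cytochrome P450 Cyp2e1 -1.44 (SE 0.50) and Ambp -1.43 (SE 0.41). Water replicates 2 and 3 were the highest arrays for each of these 5 genes. Alb, the albumin gene and the defining hepatocyte marker, did not share the pattern: it had -0.07, 0.02 and -0.20 in OPP and 0.18, 0.01 and 0.07 in water, a difference of -0.17 (SE 0.10). Cyp3a11 and Fabp1 had differences of 0.22 and 0.21.

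**Figure D2:**
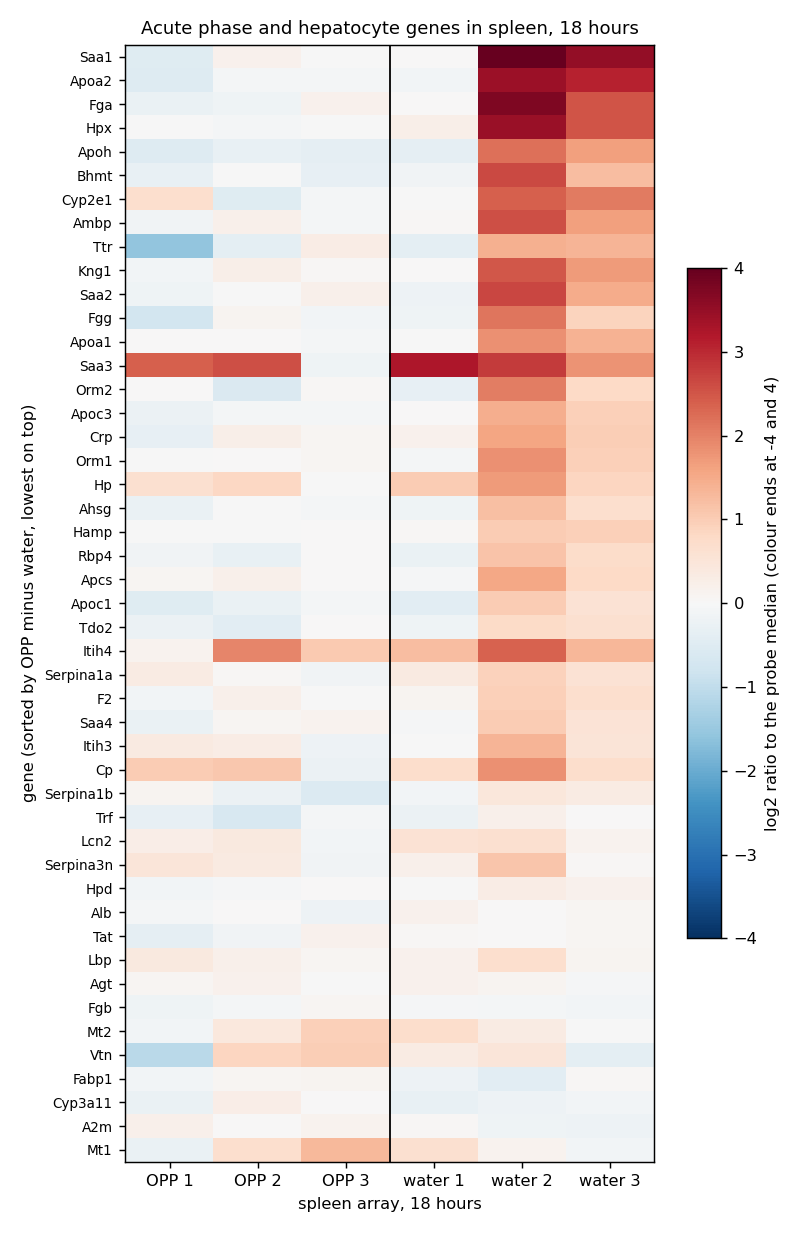
Log2 ratio (colour, ending at -4 and 4) of the acute phase and hepatocyte genes (rows, sorted by OPP minus water) in the 3 OPP and 3 water spleen arrays of 18 hours (columns). The rows at the top are pale in the OPP arrays and water replicate 1 and red in water replicates 2 and 3, where Saa1 reaches 4.61 and 3.52.

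The calls depended on which water arrays were kept. Without water replicate 1, limma called 35 probes at an adjusted p under 0.05 (0.146%), 32 lower and 3 higher. Of these probes 20 belong to the acute phase and hepatocyte lists. In that fit Saa1 had -4.16, Hpx -3.02 and Saa2 -2.07. Mup2, a major urinary protein made by the liver, had -3.77, and Fgl1, Apof, Serpinc1 and C8a, all coding for plasma proteins, were also called lower. The 3 called higher were Olfr69, Olfr24 and Cts7. With water replicates 2 and 3 both left out, 4 probes were called (0.0167%), all lower: 2 of Dct, 1 of Tyrp1 and 1 of Gpnmb. The acute phase median then was -0.07 and the hepatocyte median -0.05, against -0.07 over all genes. That fit leaves 1 water array, which is assumed to vary like the other groups. In it Saa1 had -0.10, Hpx -0.28, Fga -0.12, Fgg -0.07, Hamp -0.04, Ttr -0.14 and Crp -0.19, and Saa2, Orm1, Orm2, Apcs, Ahsg and Saa4 were positive, between 0.04 and 0.22. Of the hepatocyte genes Apoa2 had -0.11, Bhmt -0.07, Ambp -0.05, Apoh -0.04 and Cyp2e1 0.06. Hp kept -0.52 and Saa3 had -1.64. With all arrays kept, quantile normalisation gave -1.28 for Saa1, -0.99 for Hpx, -1.02 for Fga and -1.06 for Apoa2, each nearer to 0 than on the deposited scale.

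In liver at 18 hours the acute phase list had a median difference of -0.08 and the hepatocyte list -0.10. Saa1 in liver had 3.41, 3.35 and 3.51 in OPP and 3.56, 3.45 and 3.42 in water, relative to its median over the 18 liver arrays, so all 6 arrays stood well above that median and the groups overlapped. Its liver difference was -0.05 (SE 0.52), and the difference between the tissues was not tested. In spleen the acute phase median was -0.07 at 1 week and 0.02 at 4 weeks. The hepatocyte median was 0.33 at 1 week and 0.10 at 4 weeks.

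Skin genes gave differences of similar size, and these rested on 1 array. The cornified epidermis list, chosen after the values were seen, had 38 genes and a median difference of -0.71, or -0.29 under quantile normalisation, against -0.05 over all genes as deposited. Its array medians were -0.07, -0.02 and -0.00 in OPP and -0.01, -0.05 and 1.75 in water. Lor (loricrin, the main protein of the cornified envelope) had -0.09, -0.10 and -0.04 in OPP, against 0.10, 0.13 and 6.56 in water. Krt10, a keratin of the upper epidermis, had 3.83 in water replicate 3 and between -0.30 and 0.06 in OPP. Of the 38 genes, 31 had a negative difference, but Ivl, Krt5 and Krt2 had 0.30, 0.24 and 0.18. At an unadjusted p under 0.05, 11 were lower and 2 higher (28.9% and 5.26%, against 7.81% and 3.53% of all genes). Groups without overlap were lower in 6 and higher in 3 (15.8% and 7.89%, against 11.9% and 4.78%). These counts are on the deposited scale only. Without water replicate 3 the list median was 0.04, and Lor and Krt10 had differences of -0.19 and -0.08. In the water group at 1 week, replicate 2 had a Lor value of 3.93, so a raised skin signal was not limited to 18 hours. Dct had 4.29 and Tyrp1 4.11 in water replicate 1, and both lay between -0.30 and 0.44 in OPP and between -0.21 and -0.02 in the other water arrays. Without water replicate 1 their differences were 0.19 and 0.15. A second probe of Dct had 2.72 in that array, but the 2 other probes of Tyrp1 had 0.12 and 0.48. Gpnmb, a glycoprotein of melanocytes and macrophages, had -0.24, 0.05 and -0.05 in OPP and 1.66, 0.15 and 0.63 in water, a difference of -0.90 (SE 0.22), but its 3 other probes gave 0.11, 0.20 and 0.19.

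Pancreas genes varied in both groups. The acinar list (20 genes) had 0 members at an unadjusted p under 0.05 and array medians of -0.80, 0.22 and 0.53 in OPP, against 0.42, 0.04 and -0.18 in water. Ins2, insulin, had -0.66, 2.79 and 2.65 in OPP and 1.69, 0.97 and 0.63 in water. The Reg lectins, secreted lectins that the pancreas and gut make in inflammation, are a list chosen after the values were seen. Their array medians were 0.91, 3.96 and 1.46 in OPP and 2.73, 2.58 and 0.91 in water. Reg3b ranged from 1.26 to 6.54 in OPP and from 1.81 to 5.28 in water, a difference of -0.32 (SE 0.91). The groups overlapped in each of these genes and lists. Of 13 pancreatic islet genes, a list also chosen after the values were seen, 0 reached an unadjusted p under 0.05. Of 12 skeletal muscle genes, 3 were higher in OPP at an unadjusted p under 0.05 (25%, against 3.53% of all genes). In 2 the groups did not overlap, with OPP higher (16.7%, against 4.78%), and the list median was 0.10. Of 13 adipocyte and fat genes, 2 were lower at that threshold (15.4%, against 7.81% of all genes), with Pck1 at -0.66. Hepatocytes also express Pck1, which was highest in water replicates 2 and 3 and had 0.08 without them.

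A second group of genes had small differences. In each of their lists all OPP array medians lay below all water array medians, while single genes were less even across arrays. The genes of this group code for housekeeping machines of the cell. These are the respiratory chain, which makes ATP in mitochondria, the ribosome, which makes protein, and the proteasome, which degrades it. The oxidative phosphorylation list had 66 genes, of which 63 had a negative difference, against 61.7% of all genes, and 25 were lower at an unadjusted p under 0.05, against 7.81%. In 40 of them (60.6%) all OPP arrays lay below all water arrays, against 11.9% over all genes. The median difference was -0.23, against -0.05 over all genes, the range -0.41 to 0.20, and the array medians were -0.22, -0.31 and -0.34 in OPP and -0.02, -0.03 and -0.11 in water. None was called.

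Genes without overlap came from every part of the respiratory chain. The groups did not overlap in 15 of 29 genes of complex I (NADH dehydrogenase), 2 of 3 of complex II (succinate dehydrogenase), 8 of 10 of complex III with cytochrome c, 8 of 11 of complex IV (cytochrome c oxidase) and 7 of 13 of ATP synthase. Over all genes 11.9% were without overlap and lower in OPP. Cox7c, a subunit of complex IV, had -0.28, -0.35 and -0.39 in OPP, against 0.04, 0.01 and 0.02 in water, a difference of -0.36 (SE 0.09, limma adjusted p 0.426). Uqcrh of complex III had -0.36, -0.35 and -0.37 in OPP and 0.00, -0.08 and 0.02 in water, a difference of -0.34 (SE 0.09). In both genes the arrays of a group lay close together and the groups were well apart. Ndufa13 and Ndufa8 of complex I had -0.27 (SE 0.09) and -0.39 (SE 0.15), Sdhb of complex II -0.35 (SE 0.16) and Atp5g3 of ATP synthase -0.32 (SE 0.12). Ndufs1, Uqcrq and Ndufb11 were the 3 genes with a positive difference, at 0.20, 0.12 and 0.03.

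Of 72 genes for cytosolic ribosomal proteins, 68 had a negative difference (94.4%, against 61.7% of all genes). At an unadjusted p under 0.05, 13 were lower (18.1%, against 7.81%). Under quantile normalisation 7 were, to be read against the share of all genes on that scale, given above. As deposited, the groups did not overlap in 36 of the 72 (50%, against 11.9%). Under quantile normalisation they did not overlap in 23, and the share of all genes without overlap on that scale is not given here. The median was -0.15 as deposited, against -0.05 over all genes. Of the large subunit 28 of 46 genes were without overlap, and of the small subunit 8 of 26. Rpl4 had -0.40, -0.31 and -0.57 in OPP, against 0.25, 0.02 and -0.13 in water, a difference of -0.47 (SE 0.16), and Rpl24 had -0.30 (SE 0.10). Rps24 of the small subunit had -0.34 (SE 0.13). Ribosomal protein genes have many near-identical pseudogenes, so their probes may share signal.

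Of 36 proteasome genes, 33 had a negative difference (91.7%, against 61.7% of all genes). At an unadjusted p under 0.05, 6 were lower (16.7%, against 7.81%). In 21 (58.3%, against 11.9%) the groups did not overlap, 10 of 18 in the core and 11 of 18 in the regulatory particle. Their median was -0.21, against -0.05 over all genes. Psma5 had 0.07, -0.19 and -0.36 in OPP, against 0.23, 0.45 and 0.21 in water, a difference of -0.45 (SE 0.14), and the catalytic subunits Psmb6 and Psmb5 had -0.30 and -0.34. Psmb8, Psmb9 and Psmb10, the interferon-induced subunits of the immunoproteasome, had differences of -0.09, -0.05 and -0.00.

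The medians of these 3 lists shrank but kept their sign under quantile normalisation, at -0.16 for oxidative phosphorylation, -0.11 for ribosomal proteins and -0.14 for the proteasome. With water replicates 2 and 3 both left out they were -0.24, -0.18 and -0.22, against -0.06 over all probes. These lists hold 1 probe per gene, and the median over all genes in the same fit is given above. That fit sets OPP against water replicate 1 alone, which lacked the high hepatocyte values. Whether the differences of these 3 lists depend on the hepatocyte signal was not tested. Whether RNA quality or the amount of labelled RNA differed between the groups was not tested, since neither is given.

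**Figure D3:**
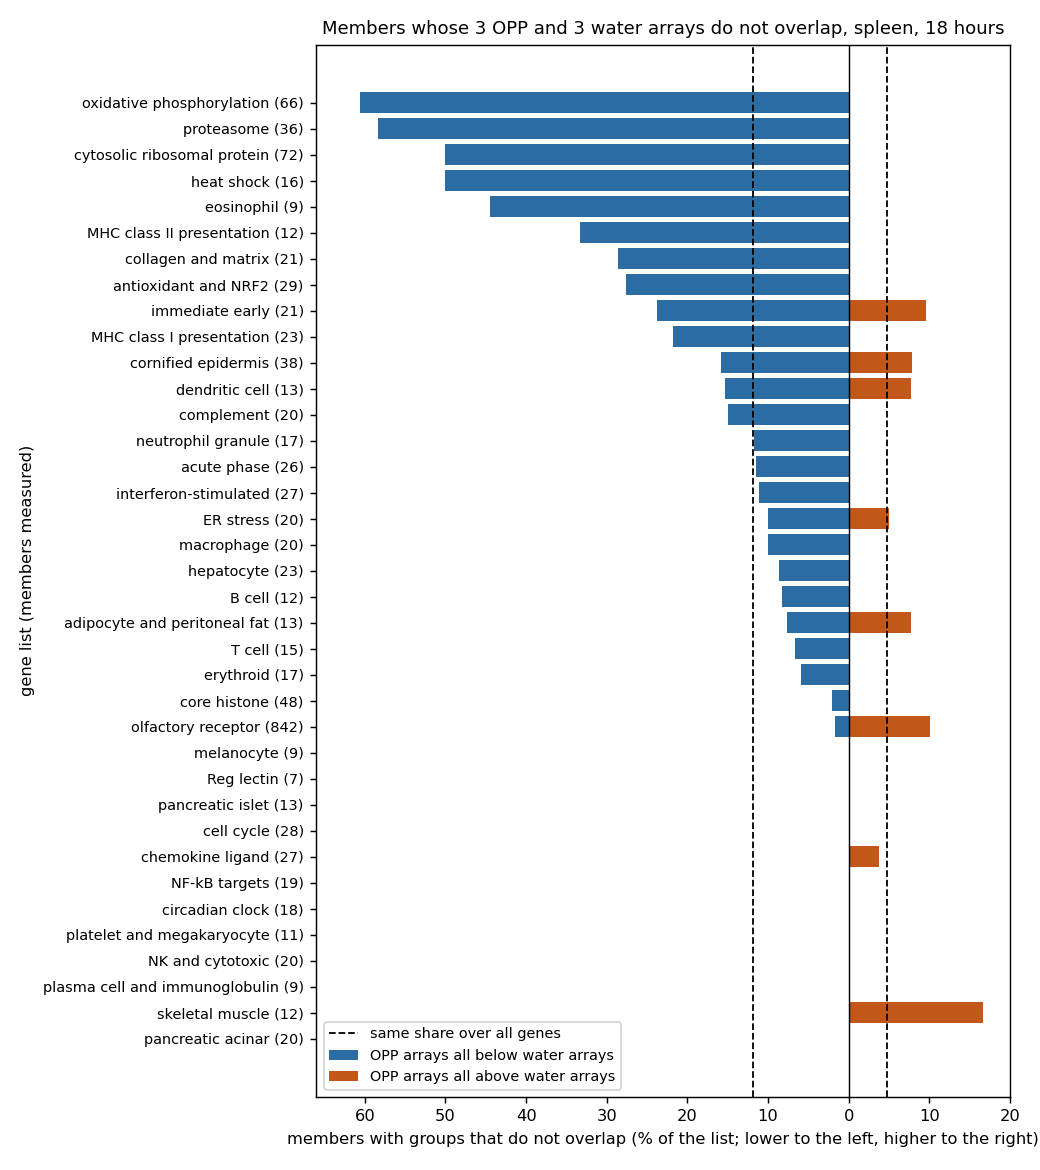
Share of each list's measured genes (horizontal axis, percent; gene number in brackets) whose 3 OPP arrays all lie below (left) or above (right) the 3 water arrays in spleen at 18 hours. Oxidative phosphorylation as a whole is at 60.6% on the left, while the acute phase list is at 11.5%, beside the dashed line for all genes at 11.9%.

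Olfactory receptor genes, which code for odour receptors of the nose and have no known main role in spleen, lay on the other side. Of 842 measured, 66 were higher (7.84%, against 3.53% of all genes) and 7 lower (0.831%, against 7.81%) at an unadjusted p under 0.05. Under quantile normalisation 4 were lower. Groups without overlap were higher in OPP for 85 (10.1%, against 4.78%) and lower for 14 (1.66%, against 11.9%). Their median difference was 0.07, and 0.10 after quantile normalisation. Olfr69 had 0.39, 0.28 and 0.22 in OPP, against 0.00, -0.34 and -0.35 in water, a difference of 0.52 (SE 0.10, limma adjusted p 0.426). Which of these probes were above background is not known, since the ratios hold no level.

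**Figure D4:**
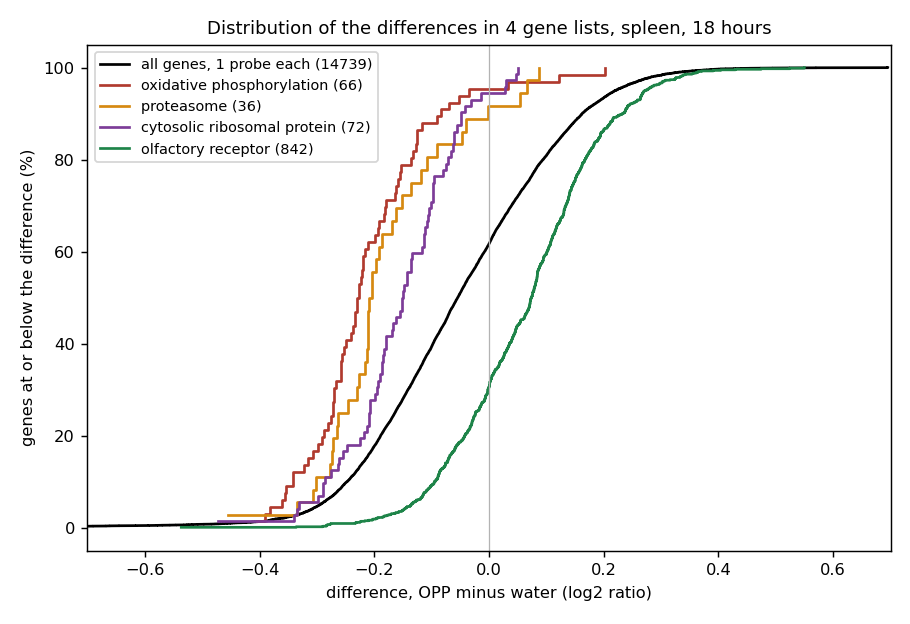
Cumulative share of genes (vertical axis, percent) at or below each difference, OPP minus water (horizontal axis, log2, shown from -0.7 to 0.7), for 4 lists and for all genes. The curves of the 3 housekeeping lists run left of the curve of all genes, with medians of -0.23, -0.21 and -0.15, and that of the olfactory receptors runs right, with a median of 0.07.

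Among genes that answer stress, heat shock genes leaned lower. Of 16, 15 had a negative difference, against 61.7% of all genes. At an unadjusted p under 0.05, 4 were lower (25%, against 7.81%), and 8 of the 16 did not overlap (50%, against 11.9%). The median was -0.26, against -0.05 over all genes. Under quantile normalisation the median was -0.16 and 1 was lower at that threshold. Hspa4, a co-chaperone of the HSP70 family, had -0.15, -0.42 and -0.51 in OPP and 0.06, 0.25 and -0.06 in water. The difference was -0.44 (SE 0.14), but its second probe gave -0.14 with overlapping groups. Hsp90aa1 had -0.35 (SE 0.16), but its other probes gave 0.11 and -0.24. Bag3, a chaperone partner, had -0.33, -0.37 and -0.34 in OPP and 0.00, 0.01 and -0.20 in water, a difference of -0.28 (SE 0.11).

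Genes of antioxidant defence did not stand higher in OPP. Of 29, 26 had a negative difference, against 61.7% of all genes. At an unadjusted p under 0.05, 7 were lower (24.1%, against 7.81% of all genes) and 0 higher, and 8 were without overlap lower (27.6%, against 11.9%). The median was -0.20, or -0.10 under quantile normalisation. Hmox1, haem oxygenase 1, had 0.01, -0.58 and -0.70 in OPP, against 0.10, 0.07 and -0.01 in water, a difference of -0.48 (SE 0.17). Prdx1, a peroxidase, had -0.11, -0.17 and -0.47 in OPP and 0.08, 0.17 and 0.05 in water, a difference of -0.35 (SE 0.12). The glutathione transferase Gsta4 had -0.58 (SE 0.19) and the cystine transporter Slc7a11 -0.24 (SE 0.10). Nqo1, a classical NRF2 target, had a difference of 0.09, and Nfe2l2, which codes for NRF2, -0.14. Of 20 genes of the unfolded protein response in the endoplasmic reticulum, 2 were lower and 2 higher at that threshold, with Trib3 at 0.35 and Ddit3 at -0.28. These are 10% each, against 7.81% lower and 3.53% higher over all genes.

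Few lymphocyte genes reached the unadjusted threshold. Of 12 B cell genes, 9 plasma cell and immunoglobulin genes and 20 NK and cytotoxic genes, 0 reached an unadjusted p under 0.05. Of 15 T cell genes 1 was lower at it (6.67%, against 7.81% of all genes), the costimulatory receptor Cd28, with -0.32 (SE 0.14). The B cell list had 11 of 12 negative differences and a median of -0.06, the plasma cell list 6 of 9 and -0.07, the NK list 8 of 20 and 0.02, and the T cell list 13 of 15 and -0.15, a median of the size of that of the ribosomal protein list. Under quantile normalisation these medians were 0.01, -0.02, 0.09 and -0.07. Cd79b, part of the B cell receptor, had -0.08, -0.33 and -0.02 in OPP, against -0.09, 0.02 and -0.07 in water. Cd3e of the T cell receptor had a difference of -0.15 (SE 0.13) and Jchain, the joining chain of secreted antibody, -0.11 (SE 0.22). OPP replicate 2 had the lowest array median of all 6 arrays in the B cell, T cell and NK lists, at -0.30, -0.40 and -0.35. Of 27 interferon-stimulated genes and 28 cell cycle genes, 0 reached that threshold. The interferon list had 23 negative differences and a median of -0.10, or -0.05 under quantile normalisation. The cell cycle list had 25 and a median of -0.21, or -0.03 under quantile normalisation, and 0 of its genes had groups that did not overlap.

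Macrophage genes stood lower in 2 of the 3 OPP arrays. Of 20, 18 had a negative difference and 7 were lower at an unadjusted p under 0.05 (35.0%, against 7.81% of all genes). In 2 the groups did not overlap (10.0%, below the 11.9% of all genes). The list median was -0.16, against -0.05 over all genes, with array medians of 0.03, -0.27 and -0.24 in OPP and -0.02, 0.09 and -0.03 in water. Adgre1, which codes for F4/80, the surface marker of red pulp macrophages, had 0.17, -0.13 and -0.87 in OPP, against 0.28, 0.31 and 0.31 in water, a difference of -0.57 (SE 0.17), and its second probe gave -0.16. Marco, a scavenger receptor of marginal zone macrophages, had 1.80, 1.01 and -0.56 in OPP and 1.64, 1.77 and 1.64 in water, a difference of -0.94 (SE 0.34). Slc40a1, ferroportin, had -0.30 (SE 0.11) and no overlap. The macrophage genes C1qa, C1qb and C1qc, the first component of complement, had -0.31, -0.35 and -0.31. Without OPP replicate 3, 2 macrophage genes were lower at an unadjusted p under 0.05.

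Granulocyte genes had negative medians with few members past the threshold. Of 17 neutrophil granule genes, 15 had a negative difference and the median was -0.26, against -0.05 over all genes. At an unadjusted p under 0.05, 1 was lower (5.88%, below the 7.81% of all genes), and 2 did not overlap (11.8%, against 11.9%). Prtn3, proteinase 3, had 0.19, 0.12 and 0.09 in OPP, against 0.79, 0.93 and 0.46 in water, a difference of -0.59 (SE 0.34). Of 9 eosinophil genes, a list chosen after the values were seen, 4 did not overlap (44.4%, against 11.9% of all genes). These were Ear6 and Ear10, eosinophil ribonucleases, with -0.70 (SE 0.27) and -0.56 (SE 0.19), Prg2, major basic protein, with -0.70 (SE 0.32), and Epx, eosinophil peroxidase, with -0.58 (SE 0.30). The surface receptors Siglecf and Ccr3 had 0.08 and 0.00, and the receptor Il5ra had -0.21 (SE 0.10) with overlapping groups. Of 17 erythroid genes, Tfrc, the transferrin receptor, alone was lower at an unadjusted p under 0.05 (5.88%, against 7.81% of all genes). Its difference was -0.38 (SE 0.18), and Hba-a1, a globin, had -0.04 (SE 0.12). Of 11 platelet genes 0 reached that threshold. Of 13 dendritic cell genes 1 did (7.69%, against 3.53% of all genes higher), the endocytic receptor Ly75, higher in OPP at 0.29 (SE 0.10).

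Signalling and antigen presentation genes gave scattered members, counted here at an unadjusted p under 0.05, at which 7.81% of all genes were lower and 3.53% higher. Of 19 NF-kB targets, 5 were lower, 2 after each array was centred on its median and 1 after quantile normalisation, and 0 did not overlap, with Nfkbiz, an NF-kB regulator, at -0.50 (SE 0.17) and the adhesion receptor Icam1 at -0.44 (SE 0.15). Of 21 immediate early genes, 5 were lower, or 3 under quantile normalisation, and 1 higher. Fos had -0.51, -0.63 and -0.52 in OPP, against 0.12, -0.02 and -0.36 in water, a difference of -0.47 (SE 0.17), and Dusp1, a phosphatase, had -0.41 (SE 0.14), while Egr3 had 0.22 and Jun 0.08. In the antigen presentation lists 3 of 12 class II genes were lower, or 1 under quantile normalisation, and 2 of 23 class I genes (8.70%, near the share of all genes), with H2-Aa, a class II chain, at -0.30 (SE 0.13) and B2m at -0.26 (SE 0.10), although a second probe of B2m gave 0.11. Of 20 complement genes 5 were lower, with C8a, made in the liver, at -0.56 (SE 0.16), or -0.14 with water replicates 2 and 3 both left out. Of 27 chemokine ligands, Cxcl1 was lower, at -0.44 (SE 0.21), and Cxcl14 higher, at 0.32 (SE 0.13). Of 21 collagen and matrix genes 6 were lower, or 2 under quantile normalisation, among them the basement membrane chains Col4a1 and Col4a2 with -0.42 (SE 0.16) and -0.37 (SE 0.17).

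Further genes with a small p, all but Igfbp7 outside these lists, had small differences in both directions. Lower in OPP was Dnaic1, an axonemal dynein chain, at -0.49 (SE 0.10), with a second probe at 0.21. Syngr2, a vesicle protein, had -0.46 (SE 0.11), with other probes at -0.13 and -0.13. Igfbp7, which is also among the collagen and matrix genes counted as lower above, had -0.44 (SE 0.10), with other probes at 0.37 and -0.04. Atp11a, a phospholipid flippase, had -0.19, -0.11 and -0.14 in OPP, against 0.23, 0.20 and 0.19 in water. The difference was -0.35 (SE 0.08), but its second probe gave 0.07. Higher in OPP were Pde6a at 0.51 (SE 0.12), Chrdl2 at 0.49 (SE 0.12) and Pcdhb7, a protocadherin, which had 0.24, 0.27 and 0.25 in OPP and -0.16, -0.07 and -0.18 in water, a difference of 0.39 (SE 0.09). None was called, and the arrays of a group were close to each other in the first probe of Atp11a and in Pcdhb7.

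Whether the OPP difference at 18 hours was unlike that at later times was tested as an interaction over the 18 spleen arrays. Against 1 week, 1 probe was called (0.00417%), that of Dbp, and 1742 reached an unadjusted p under 0.05 (7.26%). Against 4 weeks, limma called 0 probes (0%), and 2018 reached an unadjusted p under 0.05 (8.41%). Dbp codes for a transcription factor whose level follows the circadian clock. At 18 hours it had -0.05, 0.04 and 0.71 in OPP, against 0.33, -0.28 and -0.04 in water, a difference of 0.23 (SE 0.20). At 1 week it had -1.69, -1.36 and -1.56 in OPP and 0.22, 0.05 and 0.49 in water, a difference of -1.78 (SE 0.20). The difference at 18 hours minus that at 1 week was 2.01 (SE 0.29, limma adjusted p 0.0221). At 4 weeks the OPP difference of Dbp was -1.45 (SE 0.20), and the test against 18 hours gave 1.68 (SE 0.29, limma adjusted p 0.119). The call against 1 week was lost without OPP replicate 3 or without water replicate 3 of 18 hours. Of 18 circadian clock genes, which include Dbp, 2 were lower at an unadjusted p under 0.05 at 18 hours (11.1%, against 7.81% of all genes). These were the activators Arntl at -0.31 (SE 0.12) and Clock at -0.29 (SE 0.11), whose 2 other probes gave -0.06 and 0.03. The repressor Per1 had 0.22 (SE 0.11). The time of day at which the tissues were taken is not given in the labels used here, and its part in these values was not tested.

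**Figure D5:**
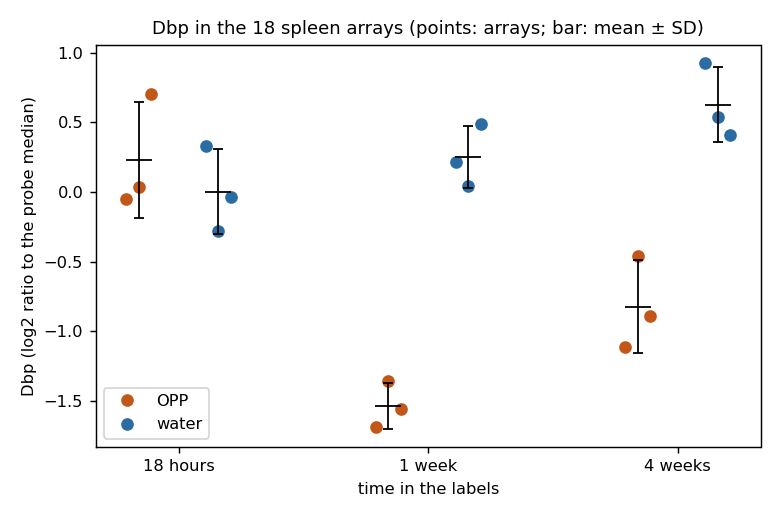
Log2 ratio of Dbp (vertical axis) in the 18 spleen arrays at the 3 times of the labels (horizontal axis), OPP left of water at each time, with points for arrays and bars for the mean and SD of 3 arrays. The groups overlap at 18 hours, where OPP runs from -0.05 to 0.71, and lie apart at 1 week, where OPP runs from -1.69 to -1.36.

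The medians of several lists were unlike between 18 hours and later times. Over all genes, the OPP difference at 18 hours was unlike that at 1 week in 7.42% and unlike that at 4 weeks in 8.98% at an unadjusted p under 0.05. The oxidative phosphorylation median was -0.23 at 18 hours, -0.07 at 1 week and 0.10 at 4 weeks, and in 32 of 66 genes the OPP difference at 18 hours was unlike that at 4 weeks at an unadjusted p under 0.05, with 0 called. The count was 14 of 72 for ribosomal protein genes and 14 of 36 for proteasome genes, with 0 called. Heat shock medians were -0.26, 0.04 and 0.43 in the same order, with 11 of 16 genes at that threshold and 0 called. Bag3 had a difference of 0.75 (SE 0.11) at 4 weeks, and the difference at 18 hours minus that at 4 weeks was -1.03 (SE 0.16, limma adjusted p 0.078). Of the 26 acute phase genes, 12 reached the unadjusted threshold against 1 week and 11 against 4 weeks, again with 0 called. Of the 23 hepatocyte genes, 15 and 11 reached it. Both lists were high at 18 hours in water replicates 2 and 3 only, with acute phase array medians of 0.04, 1.49 and 0.80 in water. These counts keep those arrays, so they do not separate a change with time from the high values of those arrays.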

How the data were processed

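Total RNA of spleen and liver was labelled as biotin cRNA and hybridised to 36 Illumina BeadChip arrays, per the labels' protocols. The deposited value table of the authors holds linear ratios of each probe to its own median within a tissue (18 arrays), as tested on the file: every spleen row has a median of 1. The authors' background correction and scaling are not given in the sources used here. A deposited table of unnormalised signals was not used, since none of its 72 columns could be tied to a sample, and the value table took the place of the planned fit on signals. Ratios were taken to log2 with no offset or filter. The fit used lmFit, contrasts.fit and eBayes of limma 3.58.1 under R 4.3.3, with 6 group means over 18 spleen arrays and 12 residual degrees of freedom, and Benjamini-Hochberg adjustment over 23982 probes at 0.05. The p-values measure the spread between arrays, which may be technical, and the number of arrays limits the precision. Of the probes, 19344 had 1 gene symbol in GEO's platform annotation, covering 14739 genes, 4638 had none and 0 had several. For lists, the probe of a gene with the highest SD was taken, over the 12 spleen arrays of 1 and 4 weeks. Members, gene lists and tests were chosen with earlier results of these data known, and 15 lists were added after values were seen. Named genes are the smallest p and the largest differences without overlap in each direction, the 4 smallest p of each list, all acute phase and hepatocyte members, and Alb, Cd79b, Cd3e, Hba-a1 and Jchain; further members named were chosen after their values were seen. Promoters are from RefSeq (GRCm38.p6). The pipeline was tested on simulated data.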

Additional observations from a re-analysis of the deposited data

Results flagged for a closer look

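The OPP difference of Dbp, a transcription factor of the circadian output, was unlike that at 1 week by a test of the difference itself, 18 hours minus 1 week, with a value of 2.01 on the log2 scale (SE 0.29, limma adjusted p 0.0221). At 18 hours 2 of the 3 OPP arrays lay inside the range of the water arrays, while at 1 week all 3 OPP arrays lay below all 3 water arrays. It was the 1 probe of 23982 called in that test, and the call was lost without OPP replicate 3 of 18 hours, without water replicate 3 of 18 hours, and with the replicate number as a block.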

How the results depend on the processing

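The count of probes called, 0, held with a fit to the 6 arrays alone, array weights, centring, quantile normalisation, a robust prior, the replicate number as a block and the more variable 50% of probes. Leaving out 1 array at a time gave 0 to 35 called probes, 938 to 2245 lower and 843 to 1082 higher at an unadjusted p under 0.05, 0 to 32 probes called between 18 hours and 1 week and 0 to 11 between 18 hours and 4 weeks, and an olfactory receptor median of 0.0506 to 0.0782. The fit to 6 arrays gave 635 probes higher. Quantile normalisation gave 1080 lower, with medians of -0.11 for ribosomal proteins, -0.16 for oxidative phosphorylation, -0.14 for the proteasome and 0.10 for olfactory receptors. The more variable 50% of probes gave 1066 lower and 137 higher. With water replicates 2 and 3 both left out, an alternative that leaves 1 water array, 4 probes were called and 931 were lower, and the medians were -0.0677 for acute phase, -0.048 for hepatocyte and -0.18 for ribosomal protein genes. Among single genes, the difference of Hba-a1 ran from -0.133 to 0.0861 with 1 array left out, positive without water replicate 1 or OPP replicate 1, and that of Jchain from -0.266 to 0.0777, positive without OPP replicate 2. The cause of these shifts was not tested. The replicate numbers did not pair the arrays: deviations of same-numbered OPP and water arrays correlated at -0.16, 0.08 and 0.06 across probes. With the replicate number as a block 0 probes were called, 1757 were lower and 940 higher, and 0 were called between 18 hours and 1 week. A floor on low ratios of 0.05 removed 0 probes, and a variance trend with level was not run because the ratios hold no level. Depth does not apply to arrays, and without levels no signal over background could be given.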

Other observations

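The Reg lectin list (7 genes, chosen after the values were seen) had a higher array median in all 18-hour arrays than in the later spleen arrays. Not every member was high at 18 hours: Reg4 ran from -0.10 to 0.12, and Reg3g had 0.05 in OPP replicate 3 and 0.06 in water replicate 3. The list had array medians of 0.91, 3.96 and 1.46 in OPP and 2.73, 2.58 and 0.91 in water at 18 hours, whereas over the 12 arrays of 1 and 4 weeks they ran from -0.95 to 0.72. The erythroid list (17 genes) ran from -1.03 to -0.36 in OPP and from -0.97 to -0.51 in water at 18 hours, from -0.78 to 0.06 in the 6 arrays of 1 week, where water replicate 3 overlapped those of 18 hours, and from 0.20 to 0.55 in the 6 arrays of 4 weeks. Time, age and any handling of the arrays by time cannot be told apart here.

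Core histone genes (48, a list chosen after the values were seen) divided the 18-hour arrays across the groups: their array medians were -0.83, -0.70 and -0.17 in OPP and -0.06, -0.83 and -0.12 in water, and 0 reached an unadjusted p under 0.05 in limma.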
